A study of Mus musculus with 2 samples.

Results

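NF-kB is a family of dimeric transcription factors built from 5 Rel family subunits. In a resting cell, inhibitors of the IkB family hold the dimers in the cytoplasm. The kinase IKK2, encoded by Ikbkb, marks the cytoplasmic IkB proteins for degradation, which lets the dimers enter the nucleus. Several IkB and subunit genes are themselves known NF-kB targets, so the pathway feeds back on its own parts. In blood-forming cells the pathway is best known for its role in inflammatory responses.

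This account covers the 10 genes of mouse that encode the Rel family subunits (Nfkb1, Nfkb2, Rel, Rela, Relb), the cytoplasmic IkB proteins (Nfkbia, Nfkbib, Nfkbie) and a pair of nuclear IkB proteins (Nfkbiz, Bcl3). They were taken by gene symbol, out of 19057 genes on the array. The platform annotation paired 11 probes with 9 of them. Of these, 7 genes had 1 probe and 2 genes had 2, and Nfkb1 was not analysed here.

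Total RNA of Flt3-low LSK cells was hybridised to Illumina bead arrays. LSK cells lack lineage markers and carry Sca1 and c-Kit, and this bone marrow fraction holds the blood stem cells. One sample had the genotype written CA/CA and came from transgenic mice whose blood stem cells make a permanently active IKK2. The other was labelled control. The design thus asks how the genes differ in expression when IKK2 is always on. Each group had 1 array, so no difference has a replicate error or a test, and every value describes 2 samples rather than 2 genotypes. Strain, age, number of pooled mice, the promoter or Cre that drives the transgene and any allele carried by the control are not stated in the labels.

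A probe counted as measured when its signal reached a background floor of 92.00 units, which 37.0% of the probes on each array did. Differences are given as CA/CA minus control on the log2 scale, after 16 units were added to each signal. Background near 81.72 units remains in every signal, so the differences of dim genes are understated. Kit, the gene of the c-Kit sort marker, was above the floor on both arrays, with 1 of its 2 probes higher in CA/CA. Its mean signal was 677 in CA/CA and 970 in the control, and its probes differed by 0.21 and -0.58. Flt3 was below the floor on both arrays, and Ly6a, the gene of Sca1, had no probe used here. Of 7 listed markers of the LSK fraction, 4 were measured and 0 passed 2-fold. Of these, 1 was above 0 and 3 below, with Cd34 the lowest at -0.84. Marker genes of other cell types differed between the samples. Their counts are read against 1.29% higher and 1.64% lower among the 10118 genes that reached the floor on either array. Of the erythroid markers, 7 of 8 measured were at least 2-fold higher in CA/CA, with a summed signal of 11007 in CA/CA and 3009 in the control. Of the B cell progenitor markers, 5 of 6 measured were at least 2-fold lower, with sums of 979 in CA/CA and 9586 in the control. Of the granulocyte and monocyte markers, 4 of 8 measured were at least 2-fold lower, with sums of 32687 in CA/CA and 59897 in the control. At least 2-fold lower were also 1 of 7 measured markers of T and NK cells (Nkg7) and 1 of 5 of megakaryocytes (Gp9). The same held for 1 of 5 of stroma and endothelium (Emcn) and 0 of 6 of macrophages. In these lists 0 markers were at least 2-fold higher. Emcn was below the floor in CA/CA. Of the 5 measured markers of stroma and endothelium and the 6 of macrophages, 1 each was above the floor there. Of the 7 T and NK markers, Nkg7 included, 5 were higher in CA/CA, with a median of 0.29 and Cd3d the highest at 0.52. Cd3e, Cd4 and Klrd1 were above the floor in CA/CA only, at least 1.26-fold, 1.04-fold and 1.22-fold higher. Whether these marker differences bear on any difference below was not tested, and fewer cells of a type cannot be told apart from less RNA per cell.

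Of the 10 genes, 8 were above the floor on both arrays. Relb was the 1 gene at least 2-fold higher in CA/CA, and 0 were at least 2-fold lower. All 8500 genes that reached the floor on both arrays give the background, with 1.31% higher and 1.87% lower by that measure. Higher in CA/CA were 6 of the 8 (Relb, Nfkbia, Nfkb2, Bcl3, Nfkbib and Nfkbie), and Rela and Nfkbiz were lower. The median difference of the 8 was 0.37, against 0.01 over all 8500 genes, of which 51.3% were above 0. The plot of probe signals shows both values of each probe.

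**Figure D1:**
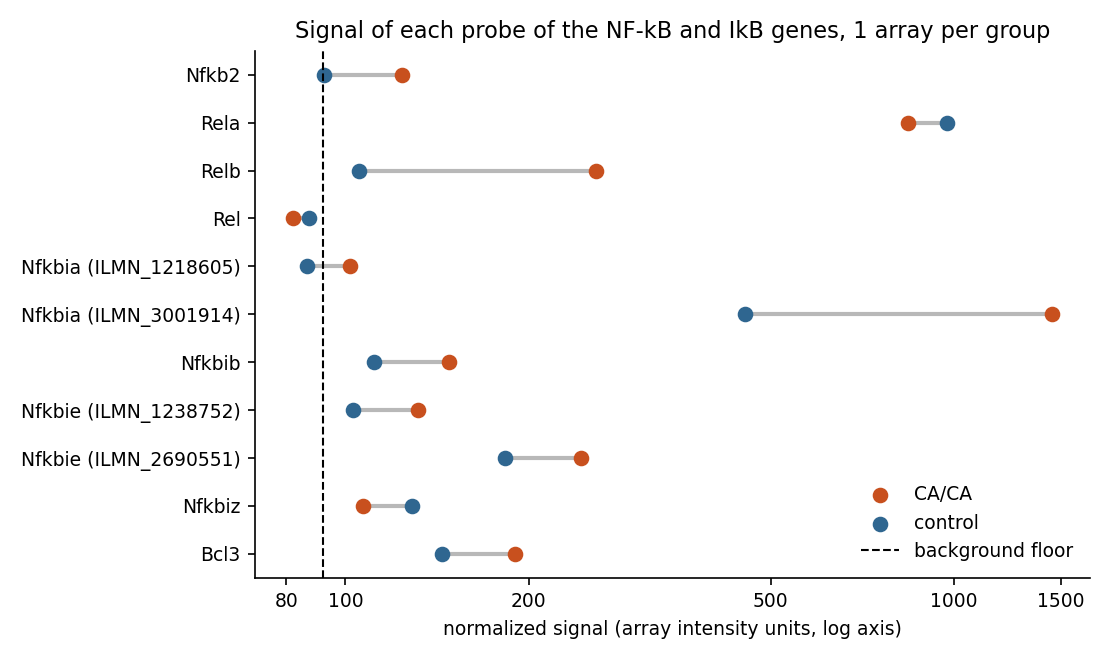
Normalized signal of each of the 11 probes on the CA/CA array (orange) and the control array (blue), on a log axis in array intensity units. Each row is 1 probe, the grey bar joins its 2 values and the dashed line is the background floor of 92.00 units. Relb and the brighter Nfkbia probe have the longest bars to the right, Rela and Nfkbiz run the other way, and both Rel values lie left of the floor.

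Relb encodes the subunit that pairs mainly with p52 in the non-canonical branch of the pathway. Its probe had a signal of 258 in CA/CA and 105 in the control, a log2 difference of 1.18. The CA/CA value was well clear of the floor, and the control value only slightly above it. Of the 8500 genes, 80, or 0.941%, had a difference at least as high as that of Relb. Counted above the background mode of 81.72 units, the signal was 176 in CA/CA and 23.5 in the control, and the difference was 2.10 after normexp background correction. With 50 units added in place of 16 it was 0.99, just under 2-fold.

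Relb is known to be abundant in dendritic cells, so their markers are given here. Of 11 dendritic cell markers, 6 reached the floor on 1 or both arrays, with a summed signal of 3377 in CA/CA and 884 in the control. Most of both sums came from H2-Ab1, H2-Eb1 and Cd74, at 1153, 817 and 1056 in CA/CA and 302, 120 and 205 in the control. The 3 markers at least 2-fold higher in CA/CA were H2-Ab1, H2-Eb1 and Cd74, genes of MHC class II presentation, and 0 were at least 2-fold lower. Among the 10118 genes that reached the floor on either array, 1.29% were higher and 1.64% lower by that measure. Of the other markers, Zbtb46 had a signal of 133.0 in CA/CA and was below the floor in the control, at least 1.38-fold higher. Siglech and Ciita were also above the floor in CA/CA only, at least 1.07-fold and 1.24-fold higher. Itgax, Batf3, Ccr7, Xcr1 and Clec9a were below the floor on both arrays. The part of dendritic cells in the Relb value was not tested.

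Nfkb2 encodes the precursor p100, which is processed to p52, the partner of RelB. Its probe had a signal of 124 in CA/CA and 92.07 in the control, a log2 difference of 0.37. The control value lay almost on the floor, so little of it stood above background. Of the 8500 genes, 10.9% had a difference at least as high. After subtraction of the background mode the difference was 1.14, past 2-fold, and it was 0.97 after normexp correction.

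Rela encodes p65, the transactivating subunit of the canonical NF-kB dimer. Its signal was 840 in CA/CA and 974 in the control, a log2 difference of -0.21. Both values were far above the floor, so background changes this difference little, and it was between -0.23 and -0.20 under 10 other settings. Of the 8500 genes, 22.2% had a difference at least as low. The difference of Relb exceeded that of Rela by 1.38 on the log2 scale and that of Nfkb2 by 0.80.

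Rel encodes c-Rel, a subunit best known from lymphocytes. Its probe had a signal of 82.10 in CA/CA and 87.18 in the control. Both values were below the floor, so no difference was detectable with this probe.

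Nfkbia encodes IkBalpha, the inhibitor that NF-kB re-induces to end its own activity. Its brighter probe, ILMN_3001914, had a signal of 1448 in CA/CA and 454 in the control, a log2 difference of 1.64. Its dimmer probe, ILMN_1218605, had a signal of 102 in CA/CA and 86.46 in the control, where it was below the floor, and was at least 1.09-fold higher in CA/CA. Both probes were thus higher in CA/CA. Counted above the background mode, the brighter probe had 1366 units in CA/CA and 372 in the control, and the dimmer 20.2 in CA/CA and 4.74 in the control. The difference of the dimmer probe as measured was 0.20, and the mean of both was 0.92. A difference at least as high as that mean was found for 1.52% of the 8500 genes. The 2 probes lay 1.44 apart, a gap that 0.44% of 2515 genes with 2 measured probes reached, against a median gap of 0.16. The control value of the dimmer probe supports only a bound, and with dim signals raised to the floor the mean was 0.88. With the brightest probe alone Nfkbia passed 2-fold. Why the probes differ was not tested.

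The promoter of Nfkbia is shown because it holds a match to the kappaB consensus, the 10-base motif that NF-kB dimers are known to bind. The sequence comes from RefSeq (GRCm38.p6, chr12:55492648-55492897, minus strand) and covers the 250 bases before the annotated start. Capitals mark the match, whose first base lies 29 bases before the start.
Nfkbia promoter: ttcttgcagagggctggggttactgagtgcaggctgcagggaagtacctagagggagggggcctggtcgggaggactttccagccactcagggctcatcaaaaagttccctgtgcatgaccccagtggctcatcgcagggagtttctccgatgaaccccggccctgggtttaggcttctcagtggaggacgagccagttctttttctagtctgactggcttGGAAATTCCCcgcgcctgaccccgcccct

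The consensus was searched on both strands of 300-base windows, 250 bases before to 50 after each annotated start, and it was the only motif searched. RefSeq windows matched 7 of the 10 genes by symbol (Bcl3, Nfkb2 with 3 starts, Nfkbia, Nfkbib, Nfkbie, Rel and Rela). The genes Nfkb1, Relb and Nfkbiz were not matched. At least 1 match was found for 5 of the 7 genes, against 9.55% of the 27025 genes with a window and 8.46% of the 32851 windows. The windows of Nfkbib and Rela held no match to these letters. A match describes the sequence and shows no binding.

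Overlapping matches joined, the windows of the 5 genes held 8 separate stretches, of which Nfkb2 had 4. Those of Nfkb2 and of the other 3 genes beside Nfkbia are printed because they let the motif be compared between genes that were higher in CA/CA and Rel, which was not measurable. Each line gives 30 bases on the gene's strand (GRCm38.p6), with the matched bases in capitals.
Nfkb2, chr19:46304688-46304717, plus strand: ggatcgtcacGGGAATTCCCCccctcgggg
Nfkb2, chr19:46304716-46304745, plus strand: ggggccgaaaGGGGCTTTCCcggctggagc
Nfkb2, chr19:46305449-46305478, plus strand: tccgacggcaGGAATGTCCCcacaaaagcc
Nfkb2, chr19:46305695-46305724, plus strand: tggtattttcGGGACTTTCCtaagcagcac
Bcl3, chr7:19822734-19822763, minus strand: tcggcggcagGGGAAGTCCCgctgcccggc
Nfkbie, chr17:45555584-45555613, plus strand: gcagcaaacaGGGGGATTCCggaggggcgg
Rel, chr11:23771042-23771071, minus strand: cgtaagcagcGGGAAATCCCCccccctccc

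The first Nfkb2 stretch and the Rel stretch each hold 2 overlapping matches. The first 2 Nfkb2 stretches begin 39 and 11 bases before the first listed start, the Nfkbie stretch 106 bases and the Rel stretch 92 bases before theirs. The Bcl3 stretch begins at base 3 of the transcript. Of the 4 matched genes with a measured signal, Nfkb2, Nfkbia, Nfkbie and Bcl3, all were higher in CA/CA, by between 0.35 and 0.92. Of the 2 without a match, Nfkbib was higher by 0.37 and Rela was lower. Relb, which was higher, and Nfkbiz, which was lower, had no promoter window, so this split leaves them out. Across the 8500 genes, 51.3% lay above 0, between 10.9% and 12.3% reached the differences of Nfkb2, Bcl3 and Nfkbie, and 1.52% that of Nfkbia. Whether a match bears on the difference of a gene was not tested.

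Nfkbib encodes IkBbeta, a cytoplasmic inhibitor that is degraded more slowly than IkBalpha. Its probe had a signal of 148 in CA/CA and 111 in the control, a log2 difference of 0.37. Nfkbie encodes IkBepsilon, a further cytoplasmic inhibitor. Its probes had signals of 243 and 131 in CA/CA and of 183 and 103 in the control. The 2 Nfkbie probes differed by 0.39 and 0.31, close to each other, with a mean of 0.35. All 5 probes of the 3 cytoplasmic IkB genes were higher in CA/CA, while 51.3% of the 8500 genes lay above 0. Probes of 1 gene are not independent, and the dimmer Nfkbia probe was below the floor in the control. Differences at least as high as those of Nfkbib and Nfkbie were common, at 11.3% of the 8500 genes for Nfkbib and 12.3% for Nfkbie. Counted above the background mode, the control signal was only 29.5 units for Nfkbib and 21.2 for the dimmer Nfkbie probe. After normexp correction the difference was 0.77 for Nfkbib and 0.65 for Nfkbie. With the mode subtracted it was 0.85 for Nfkbib and 0.71 for Nfkbie.

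The nuclear IkB genes went opposite ways. Bcl3 encodes a nuclear partner of p50 and p52 homodimers. Its probe had a signal of 190.3 in CA/CA and 144 in the control, a log2 difference of 0.37. Nfkbiz encodes IkBzeta, a nuclear coactivator of a subset of inflammatory genes. Its probe had a signal of 107 in CA/CA and 129 in the control, a log2 difference of -0.24. The Bcl3 difference exceeded that of Nfkbiz by 0.60, though 11.3% of genes had a difference as high as Bcl3 and 20.0% one as low as Nfkbiz. Probes of 1 gene varied around their mean with an SD of 0.24, measured over 3861 genes. That SD covers differences between probes of any origin and none between mice. After normexp correction the Nfkbiz difference was -0.55 and that of Bcl3 0.63.

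**Figure D2:**
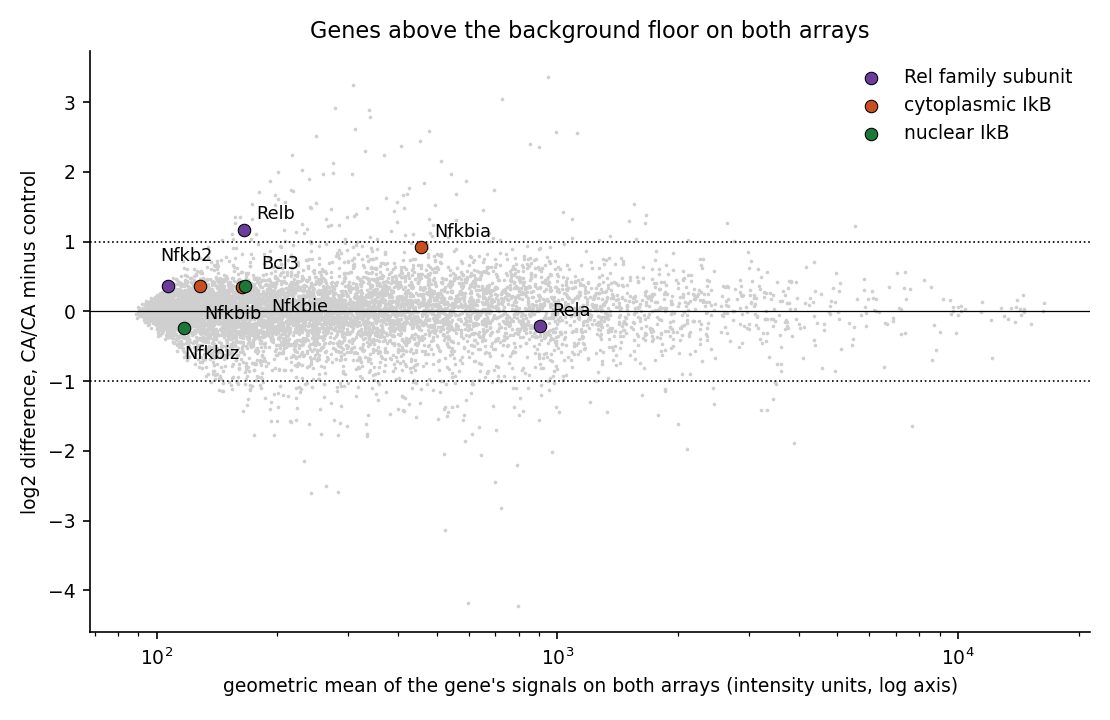
Log2 difference, CA/CA minus control, against the geometric mean of each gene's signals on both arrays (log axis), for the 8500 genes above the floor on both (grey). The 8 measured genes are coloured by class and dotted lines mark 2-fold. Relb lies above the upper line at 1.18, Nfkbia just under it at 0.92, and 4 genes lie between 0.3 and 0.4 amid many grey points.

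The size of these differences depends on the scale of the signal. Over 10 other settings Relb ran from 0.99 to 2.28, Nfkbia from 0.86 to 1.64, Nfkb2 from 0.29 to 1.14 and Nfkbiz from -0.62 to -0.19. Their signs had no room to change, since each setting treats the 2 matched arrays alike or nearly so and the probes of each gene had the same sign. The settings reuse the same 2 arrays, so these ranges say nothing about the spread between mice.

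**Figure D3:**
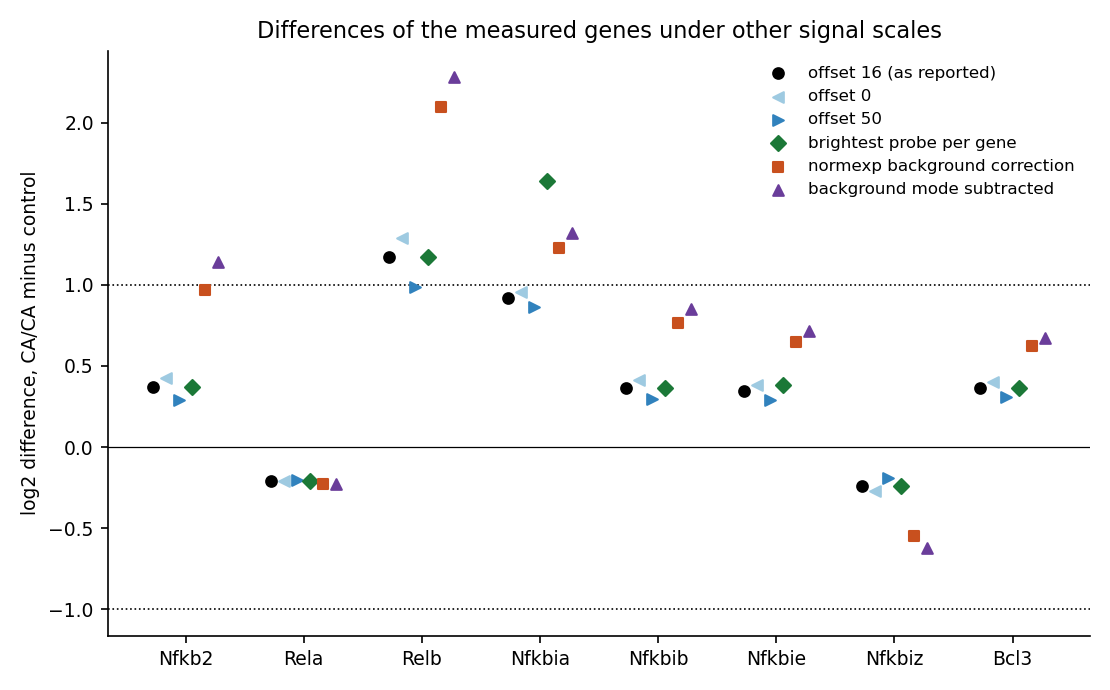
Log2 difference, CA/CA minus control, of the 8 measured genes as reported and under 5 other settings (symbols), with dotted lines at 2-fold. Relb moves between 0.99 and 2.28 and Nfkb2 reaches 1.14 once background is subtracted, while Rela stays near -0.21.

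The other parts of the pathway were set beside these genes as 3 lists, whose calls are read against 1.29% higher and 1.64% lower among the 10118 genes that reached the floor on either array. In the IKK complex and its upstream kinases, 9 of 10 genes were measured. Of these 0 passed 2-fold in either direction, and the median difference was 0.00. Ikbkb itself, whose probes may or may not read the transgene, had a signal of 205 in CA/CA and 205 in the control. Map3k7, which encodes the IKK-activating kinase TAK1, had the highest difference, 0.35. Map3k14, which encodes NIK, the kinase that starts the non-canonical branch leading to p52 and RelB, had the lowest. Its signal was 107 in CA/CA and 179 in the control, a difference of -0.66 from 1 probe. Whether this value bears on Relb or Nfkb2 was not tested.

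Among genes of IkB turnover and regulators of NF-kB, 12 of 15 were measured, 0 passed 2-fold in either direction, and the median was -0.07. Pdlim2 encodes a nuclear ubiquitin ligase that acts on p65, and it had the lowest difference, -0.49, with all 4 probes lower in CA/CA. Nkrf, an NF-kB repressing factor, had the highest, 0.44. The list also holds Nfkbid, the gene of another nuclear IkB protein, which was named after its values were seen. It had a signal of 291 in CA/CA and 363 in the control, a difference of -0.31, the same sign as that of Nfkbiz.

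Among NF-kB target and feedback genes, 18 of 24 were measured, of which 3 passed 2-fold upward and 0 downward. Their median difference of 0.05 was below the 0.37 of the subunit and IkB genes. Tnfaip2, known as a gene that tumour necrosis factor induces, had a signal of 686 in CA/CA and 204 in the control, with all 3 probes higher. Cxcl10, a chemokine also induced by interferon, had 338 in CA/CA and was below the floor in the control, at least 3.28-fold higher. Sod2, mitochondrial superoxide dismutase, had 2251 in CA/CA and 1092 in the control, a log2 difference of 1.03, only just past 2-fold. Ltb, which encodes lymphotoxin beta, had the lowest difference, -0.62, with 272 in CA/CA and 425 in the control. Members of this list lay on both sides of 0, with 11 above and 7 below. At a 1.5-fold threshold 6 were higher and 1 was lower, against 4.02% higher and 5.63% lower among the 10118 genes.

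**Figure D4:**
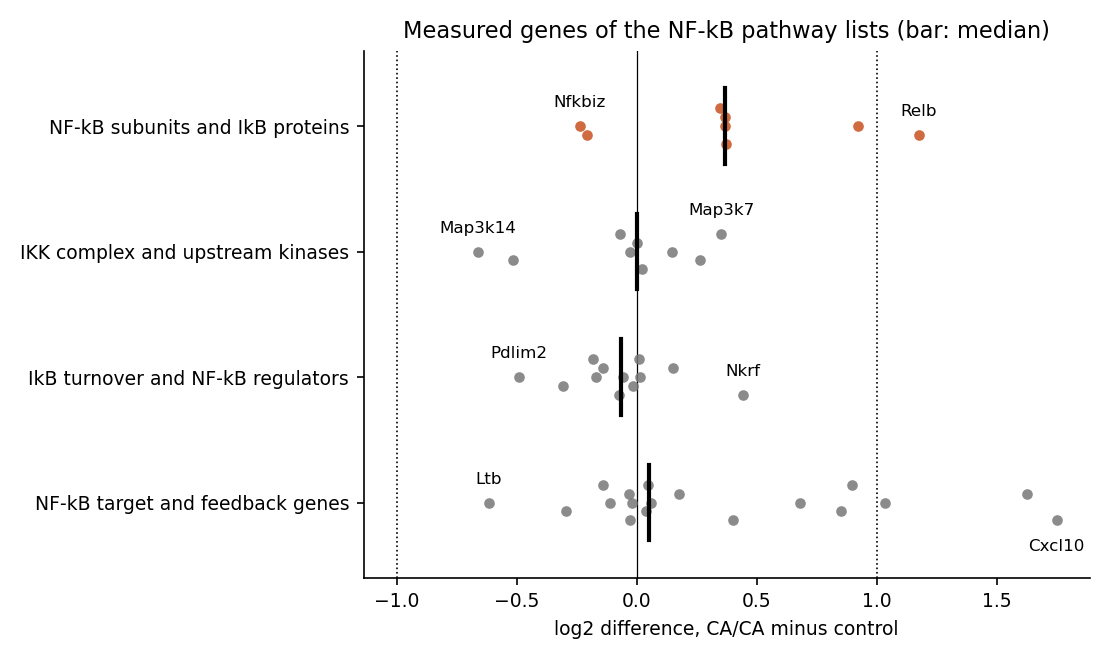
Log2 difference, CA/CA minus control, of each measured gene (points) in the 8 subunit and IkB genes and in the 3 pathway lists, with the median as a black bar and 2-fold as dotted lines. The vertical scatter within a row only separates points, the lowest and highest gene of each row are named, and Cxcl10 is plotted at its measured 1.75 although its control signal was below the floor. The medians are 0.37, 0.00, -0.07 and 0.05 from top to bottom.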

How the data were processed

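Gene expression was measured in 1 CA/CA and 1 control sample. The authors deposited normalized intensity values for 45281 probes. The submitters' processing notes name BeadStudio, and the labels give neither its version nor its settings. The deposited intensity values were linear, from 71.85 to 17159 units, and the sorted columns differed by at most 0.0022 (log2), as after quantile normalization, with no background subtracted. Another table's 4 value columns matched no sample label and were not used, so no detection p-value was available. The floor was the background mode (81.72, the centre of the narrowest range that held 25% of the values) plus 4 SD (2.57 each) of the values below it.

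Probes with 1 annotated gene symbol (34885, against 18 with several and 10378 with none) were averaged per gene, leaving out probes under the floor on both arrays. Where 1 array was below the floor, a call used the lowest signal above it. Named genes were all 10 members and, of each pathway list, genes past 2-fold and the extreme in each direction. Likeness between genes could not be measured with 2 arrays. Members and lists were chosen with earlier results of these data known. The number of arrays limits precision. Steps were tested on simulated data, with changes only in genes brighter in the control than most of the measured members. That test does not cover changes in dim genes. Python 3.11.15, numpy 2.4.6, pandas 2.3.3, matplotlib 3.10.9, R 4.3.3 and limma 3.58.1 (normexp) were used. Alternatives changed the background correction, offset (0, 50), floor (2 or 8 SD, or none), probe summary, dim signals and fold threshold (1.5, 3). Subtraction of the mode and normexp with offset 50 were added after the data were seen.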

Additional observations from a re-analysis of the deposited data

How the results depend on the processing

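No paired analysis was possible because each group had 1 array. The count of subunit and IkB genes at least 2-fold higher in CA/CA was 1 as reported. It was 2 (Relb and Nfkbia) with normexp correction, with normexp and an offset of 50, with the floor at 8 SD, with the brightest probe and at a 1.5-fold threshold, 3 (Nfkb2 as well) with the background mode subtracted, and 0 with an offset of 50 or at 3-fold. Their median difference, 0.37 as reported, was 0.71 with normexp and 0.78 with the mode subtracted. The count at least 2-fold lower was 0 throughout. In the IKK list, 1 gene was past the threshold on the lower side with normexp, with the mode subtracted and at 1.5-fold, and 1 on the higher side with the mode subtracted. In the list of IkB turnover and regulators, 1 was lower with the mode subtracted. In the target list, 6 were higher with normexp and at 1.5-fold and 7 with the mode subtracted, and 1 was lower at 1.5-fold. The higher count there was 4 with normexp and an offset of 50. It was 2 with the floor at 2 SD, with no floor and at 3-fold. Over all genes, 131 higher and 166 lower became 287 and 471 with normexp, 365 and 558 with the mode subtracted, 173 and 259 with normexp and an offset of 50, 407 and 570 at 1.5-fold, and 53 and 35 at 3-fold. Of 80 differences of the 8 genes under other settings, 17 moved by more than the SD of 0.24 between probes of 1 gene. Their signs were fixed by the construction of the settings. Without a floor, Rel had a difference of -0.07. Signal over background limits Rel, Nfkb2, Nfkbiz, the dimmer Nfkbia probe and the control values of Relb, Nfkbib and the dimmer Nfkbie probe.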
